A study of Homo sapiens with 10 samples.

Results

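The Notch genes described here are 10 genes chosen by symbol: the receptors NOTCH1, NOTCH2 and NOTCH3, the ligands DLL1, DLL3, JAG1 and JAG2, and the transcription factor genes HES1, HES5 and HEY1. All 10 were found among the 32152 genes of the count table. The libraries were polyA RNA of human embryonic stem cells of the established line WAe009-A, analysed undifferentiated. There were 5 libraries labelled as knockout of KCNH2 (KCNH2-/-, called a knockdown in the genotype field) and 5 labelled wild type (WT). KCNH2 encodes the hERG1 potassium channel. Both groups grew on Matrigel, but the medium was mTeSR Plus for the knockout and TeSR-E8 for WT, and the effects of medium and genotype cannot be told apart. The sources used here do not give the number of knockout clones, the edited site or whether replicates were separate cultures. P-values therefore measure only the spread between these libraries, which may be technical.

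Notch is a receptor through which neighbouring cells signal by contact. A DLL or JAG ligand on one cell pulls on the receptor of the next, ADAM10 and then gamma-secretase cut the receptor, and the freed intracellular part enters the nucleus. There it binds the DNA-binding protein RBPJ and a MAML coactivator and turns on HES and HEY genes, whose products are basic helix-loop-helix repressors. In embryonic stem cells the pathway is best known for its part in the choice to leave pluripotency, above all towards neural fates.

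The promoters of HES1 and HES5, classical Notch targets, are shown because they held the letters that RBPJ is known to bind. The 250 bases before the start site are printed 5′ to 3′ on the strand of the gene, from RefSeq on GRCh38.p14, with each TGGGAA, the RBPJ core, and its reverse complement TTCCCA in capitals. HES1 lies on the plus strand (chr3:194135898-194136147) and HES5 on the minus strand (chr1:2530264-2530513).
HES1: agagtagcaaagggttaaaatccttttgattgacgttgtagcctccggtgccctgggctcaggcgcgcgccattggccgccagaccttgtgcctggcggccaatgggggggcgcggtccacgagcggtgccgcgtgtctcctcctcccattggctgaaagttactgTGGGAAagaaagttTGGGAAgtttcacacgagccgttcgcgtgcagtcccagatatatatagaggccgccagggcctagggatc
HES5: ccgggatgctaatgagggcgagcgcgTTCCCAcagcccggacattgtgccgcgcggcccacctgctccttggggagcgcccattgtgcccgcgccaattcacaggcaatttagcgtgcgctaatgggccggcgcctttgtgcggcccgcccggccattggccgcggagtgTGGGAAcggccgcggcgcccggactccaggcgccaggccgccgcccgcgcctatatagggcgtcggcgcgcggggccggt
HES1 held TGGGAA 2 times on its own strand, 84 to 79 and 70 to 65 bases before the start. HES5 held it 2 times, on its own strand at 80 to 75 bases and on the other strand at 224 to 219 bases. Of the 7 Notch genes with a promoter in the RefSeq table, these 2 held the motif on either strand, against 20.8% of 35116 promoters of the same length. The longer GTGGGAA, which contains the core, was in the same 2 promoters and in 5.4% of all. HES1 also held CACNAG, the N box bound by HES proteins themselves, 3 times (NOTCH3 once among the rest, and 32% of all promoters), and none of the 7 held the E box CACGTG (6.3% of all). A match describes letters and is not a measured binding site.

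Library totals ran from 28615751 to 47319933 counts, and every value below in CPM is a count per 1e6 of the TMM-scaled library size. KCNH2 itself was 11.15, 13.19, 13.16, 12.15 and 11.19 CPM in knockout replicates 1 to 5 and 14.88, 16.12, 14.66, 16.39 and 15.41 CPM in WT. It was lower by edgeR (adjusted p = 0.000648), at a log2 fold change of -0.35 with SE 0.06, and remained well expressed. On the second principal component knockout replicate 3 (-59.1) and WT replicate 3 (-32.2) stood apart. WT replicate 2 (-10.1) lay below WT replicates 1, 4 and 5 (25 to 35.8) but near knockout replicates 4 (-2.3) and 5 (-2). The pluripotency markers were high in every library, with a summed 7357 to 7781 CPM in the knockout and 6422 to 6759 CPM in WT over 10 genes (6 higher, 0 lower). Of 10 neural progenitor markers, 7 stayed under 1 CPM in every library, PAX6 and SOX1 among them. The same held for 5 of 7 mesoderm and primitive streak markers and 4 of 6 endoderm markers that had a row, although the endoderm factor gene FOXA2 fell from 3.73 to 0.40 CPM. Of 7 tested neuron markers 3 were higher, with STMN2 at a ratio of 5.07, and 4 lower, with MAP2 at 0.621 and DCX at 0.625. The summed level of the 8 listed neuron markers was 128.6 to 151.1 CPM in the knockout and 146.4 to 160.6 CPM in WT. Of 5 tested fibroblast markers COL1A1 (-0.52) and COL1A2 (-0.74) were lower. The part of these markers in the Notch results was not tested.

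Of the 10 Notch genes, 9 had enough counts to be tested, and 5 of these were lower in the knockout: NOTCH2, NOTCH3, JAG1, JAG2 and HES1. None was higher. Across all 19163 tested genes, 24.1% were lower and 21.9% higher at an adjusted p under 0.05, 46.0% in either direction. The median log2 fold change of the 9 was -0.14, against 0.0018 over all tested genes. The same 5 were also the ones whose 5 knockout and 5 WT libraries did not overlap, as was the case for 34.0% of all genes. All fold changes were under 1 on the log2 scale, and only JAG2 and HES1 kept their call when each library was corrected for gene length and GC content, as described below. These 2 of 9 were near the share of all tested genes that was lower with the same correction. In bulk RNA, fewer cells expressing a gene and less RNA per cell cannot be told apart.

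**Figure D1:**
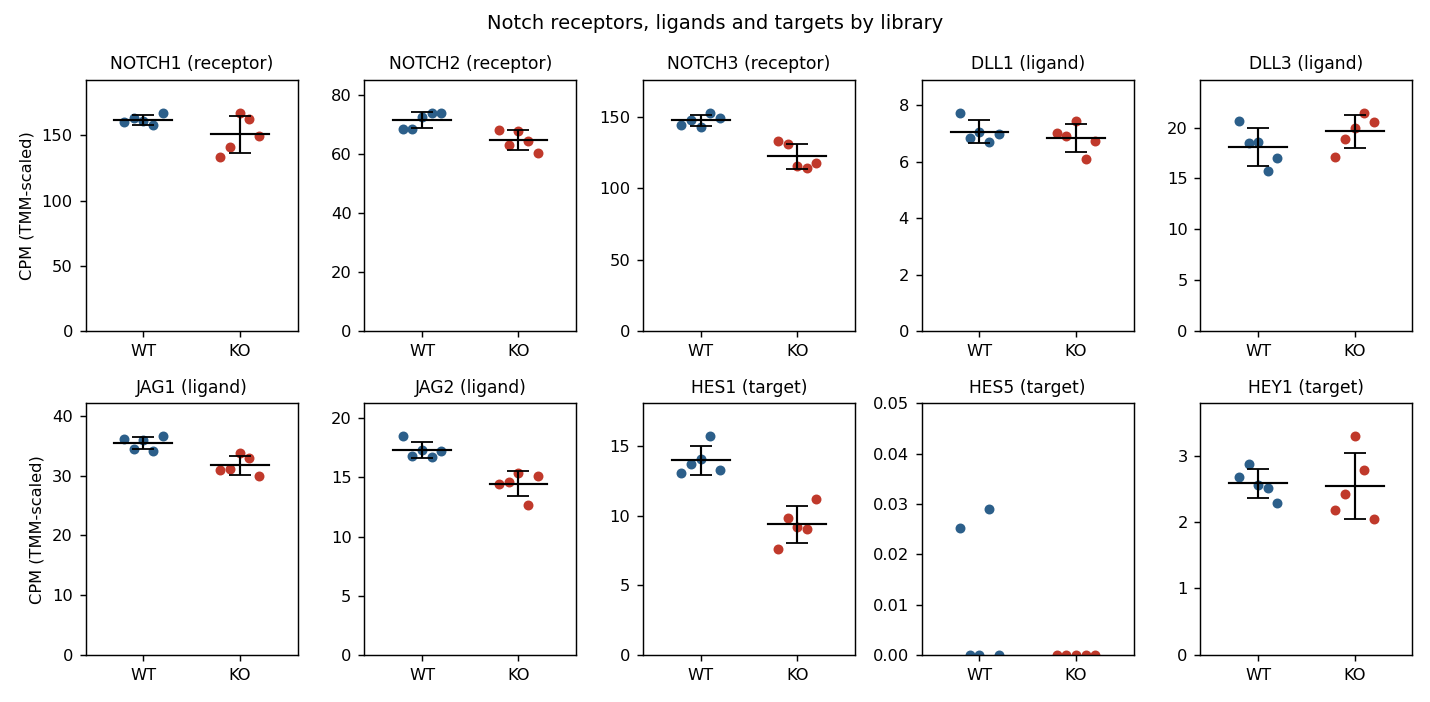
CPM (TMM-scaled, axes from 0) of the 10 Notch genes in each WT and KO (knockout) library; points are libraries, and lines and bars are the mean and SD of 5 (not drawn for HES5, which had 2 counts in all). For NOTCH2, NOTCH3, JAG1, JAG2 and HES1 every KO point lies below every WT point.

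Among the transcriptional targets, HES1 showed the largest change of the 9 tested genes. HES1 encodes a repressor that holds back neural differentiation and its own transcription. It measured 7.593, 9.878, 9.175, 9.069 and 11.19 CPM in knockout replicates 1 to 5 and 13.11, 13.7, 14.08, 15.72 and 13.3 CPM in WT. The highest knockout library lay below the lowest WT library. The means were 9.38 ± 1.31 CPM (SD, n = 5) and 13.98 ± 1.04 CPM, a ratio of 0.672. On the log2 scale the change was -0.57 ± 0.09 (SE; adjusted p = 0.000329 by edgeR). With the length and GC correction it was -0.71 (SE 0.09, edgeR adjusted p = 5.38e-05). In all 19 alternative fits that test for any change it stayed below 0, between -0.71 and -0.50, with adjusted p of at most 0.00156.

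HEY1, which encodes a related repressor best known in heart and vessels, was not called. It measured 2.184, 2.421, 3.291, 2.777 and 2.051 CPM in the knockout and 2.682, 2.873, 2.558, 2.519 and 2.279 CPM in WT. The groups overlapped throughout, and the knockout libraries held both the highest and the lowest value. The log2 fold change was -0.02 with a 95% interval from -0.31 to 0.27 (edgeR adjusted p = 0.906), so a change as large as that of HES1 lay outside the interval. The counts behind it were the smallest of the tested Notch genes, 65 to 139 per library. HES1 relative to HEY1 fell in mean by 0.55 on the log2 scale, but knockout replicate 5 lay above WT replicates 1 and 2 in this ratio, and the exact permutation test gave p = 0.0238 and an adjusted p of 0.0595 over 10 such ratios.

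HES5, the classical Notch target of neural progenitors, was all but silent in both groups. No knockout library held a read of it (0 counts each), and WT replicates 1 and 4 held 1 count each, 2 in all. A count of 0 allows up to 3 counts, or 0.0739 to 0.101 CPM at the depth of a knockout library and 0.0166 CPM over all 5. A fold change is not given, since both groups were under this floor. A long noncoding RNA gene on the opposite strand overlaps HES5, with a summed count of 347 over the knockout libraries and 443 over WT, and the sources used here do not say whether the counting used strand.

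In CPM, which does not correct for length, the receptors stood highest. NOTCH3 measured 132.6, 131.1, 115.5, 113.9 and 117.6 CPM in the knockout and 143.8, 147.9, 142.5, 152.8 and 149.2 CPM in WT. All knockout libraries lay below all WT libraries, and knockout replicates 1 and 2 lay closest to them. The means of 122.2 ± 8.97 and 147.2 ± 4.15 CPM differed by -0.27 ± 0.05 in log2 (SE; adjusted p = 0.000522 by edgeR). NOTCH3 encodes the receptor that is best known in vascular smooth muscle. With the length and GC correction the value was -0.10 and no longer passed (edgeR adjusted p = 0.114).

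NOTCH2 fell by less. It measured 67.94, 63.08, 67.71, 64.42 and 60.24 CPM in the knockout against 68.57, 68.49, 72.43, 73.74 and 73.99 CPM in WT. The groups did not overlap, but knockout replicates 1 and 3 came within 1 CPM of the lowest WT library. The log2 fold change was -0.14 (SE 0.04, edgeR adjusted p = 0.0106), and with the length and GC correction the sign turned, to 0.07 (edgeR adjusted p = 0.141). NOTCH2 has near-identical partial copies, of which NOTCH2NLA held 81 to 143 counts per library, NOTCH2NLB 17 to 34 and NOTCH2NLC 62 to 144. NOTCH2 held 2022 to 3314, and reads may be shared between them.

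NOTCH1, the most studied of the receptors, did not pass. It measured 133.2, 141, 167.6, 162.6 and 149.9 CPM in the knockout and 160.1, 163.1, 160.8, 158.1 and 167.3 CPM in WT. The knockout libraries spread widely, with replicates 1, 2 and 5 below all WT libraries and replicate 3 above them all, while the WT libraries lay close together. The log2 fold change was -0.10 with a 95% interval from -0.22 to 0.02 (edgeR adjusted p = 0.159). Without knockout replicate 3 it was -0.14 and passed (edgeR adjusted p = 0.0377), without both replicate 3 libraries it was -0.14 and did not (edgeR adjusted p = 0.0507), and without knockout replicate 1 it was -0.05 (edgeR adjusted p = 0.48). With the length and GC correction it was 0.07 (edgeR adjusted p = 0.275). The ratio of NOTCH1 to NOTCH3 did not differ between the groups beyond its spread: it was 0.30 ± 0.24 on the log2 scale in the knockout and 0.14 ± 0.05 in WT (exact permutation p = 0.19, adjusted 0.212). The call for NOTCH3 and the missed call for NOTCH1 thus do not show that these receptors changed by different amounts. Nor did NOTCH2 relative to NOTCH3 (exact permutation p = 0.0476, adjusted 0.0952) or NOTCH1 relative to NOTCH2 (p = 0.643 before and after adjustment) pass.

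The Jagged ligands fell. JAG2 measured 14.41, 14.58, 15.39, 12.69 and 15.12 CPM in the knockout and 18.47, 16.84, 17.28, 16.68 and 17.25 CPM in WT. The groups did not overlap, and knockout replicate 4 was the lowest library. The means of 14.4 ± 1.06 and 17.3 ± 0.70 CPM differed by -0.26 ± 0.06 in log2 (SE; adjusted p = 0.00217 by edgeR), or -0.16 with the length and GC correction (SE 0.05, edgeR adjusted p = 0.0248). JAG2 overlaps AL512356.1 on the same strand, a gene without counts here, so its reads may be shared. JAG1, the Jagged ligand whose loss causes Alagille syndrome, measured 30.94, 31.05, 33.8, 32.91 and 29.99 CPM in the knockout and 36.13, 34.47, 35.95, 34.16 and 36.6 CPM in WT. Its groups did not overlap either, though knockout replicate 3 came close to WT replicate 4. The log2 fold change was -0.16 (SE 0.04, edgeR adjusted p = 0.00576), and with the length and GC correction -0.04 and not called (edgeR adjusted p = 0.345).

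The Delta-like ligands did not pass in either direction. DLL1, a ligand that activates Notch on neighbouring cells, measured 7.022, 6.901, 7.446, 6.088 and 6.75 CPM in the knockout and 7.742, 6.841, 7.051, 6.688 and 6.974 CPM in WT. The values interleaved, with a log2 fold change of -0.05 and a 95% interval from -0.20 to 0.10 (edgeR adjusted p = 0.61). DLL1 overlaps FAM120B on the opposite strand, which had a summed count of 3550 over the knockout libraries and 3930 over WT, so its reads may be shared. DLL3, a divergent ligand that acts inside the cell and inhibits rather than activates Notch, measured 17.14, 18.92, 20, 21.47 and 20.54 CPM in the knockout and 20.65, 18.46, 18.53, 15.72 and 17.04 CPM in WT. Its groups overlapped, and the log2 fold change was 0.12 with a 95% interval from -0.05 to 0.29 (edgeR adjusted p = 0.238).

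Ratios between genes of a role, which do not depend on how libraries are scaled, were tested too, and 2 of the 6 between ligands passed, both over JAG2. As a log2 ratio of counts, DLL3 relative to JAG2 was 0.44 ± 0.19 in the knockout and 0.06 ± 0.11 in WT, higher by 0.38 with no overlap. DLL1 relative to JAG2 was -1.08 ± 0.05 in the knockout and -1.29 ± 0.02 in WT, a difference of 0.22, also with no overlap. Each gave p = 0.00794 in a two-sided exact permutation test, the smallest that 5 against 5 allows, and 0.0397 after adjustment over the 10 ratios within a role. DLL3 relative to JAG1 was higher by 0.28 (exact permutation p = 0.0159, adjusted 0.0529), JAG1 relative to JAG2 by 0.10 (p = 0.119 by the exact test, adjusted 0.17), and DLL1 relative to JAG1 by 0.11 (exact p = 0.143, adjusted 0.179), none of which passed. DLL1 relative to DLL3 had a difference of -0.17 (exact permutation p = 0.111, adjusted 0.17). The Delta-like transcripts are shorter than the Jagged ones, 3174 bases for DLL1 and 2332 for DLL3 against 5940 for JAG1 and 5835 for JAG2. With the length and GC correction the difference was 0.21 for DLL3 relative to JAG2 (exact permutation p = 0.0317, adjusted 0.0794) and 0.12 for DLL1 relative to JAG2 (exact permutation p = 0.0159, adjusted 0.0794). The groups then overlapped in both, and none of the 10 ratios passed. NOTCH2 relative to NOTCH3 was then higher by 0.17 with no overlap (exact permutation p = 0.00794, adjusted 0.0794). Among 10 ratios, 1 at this smallest p cannot pass alone. The lack of calls therefore does not show that no ratio differed.

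Fold changes followed transcript length across all genes, and the Notch receptors are among the longest transcripts. With protein-coding genes (1 CPM or more) split into 10 equal bins by length, the bin of the shortest, with a median of 1260 bases, had a median log2 fold change of 0.21, and that of the longest, at 9786 bases, -0.14. The longest transcripts of NOTCH1, NOTCH2 and NOTCH3 are 9306, 11389 and 8666 bases, all in the bin of the longest, and JAG1 and JAG2 fall in a bin with a median of -0.06. HES1, at 1578 bases, belongs to the bin of the shortest. When each library was corrected by a smooth trend on length and GC, 2 of the 9 Notch genes were lower (HES1 and JAG2) and 0 higher. Over all 19163 tested genes 4635 were lower and 3884 higher, so the share of the 9 that was lower was near that over all genes. What the length trend reflects was not tested.

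**Figure D2:**
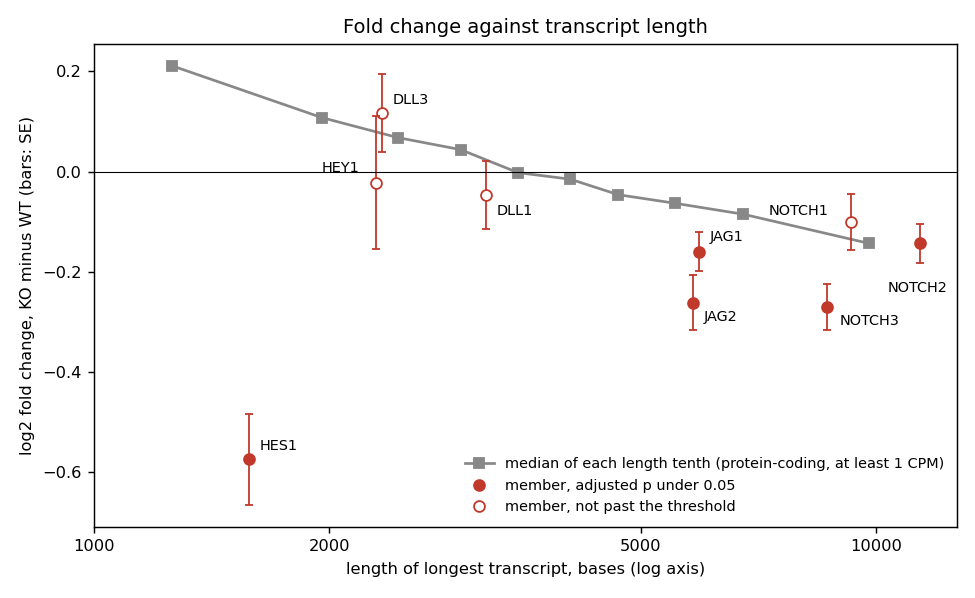
Log2 fold change, KO minus WT, against the length of the longest transcript (log axis); red points are Notch genes with their SE, filled where adjusted p is under 0.05, and grey squares are medians of all protein-coding genes in 10 bins of length. The medians go from 0.21 to -0.14, NOTCH1 and NOTCH2 lie near that line, and HES1 lies far below it.

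**Figure D3:**
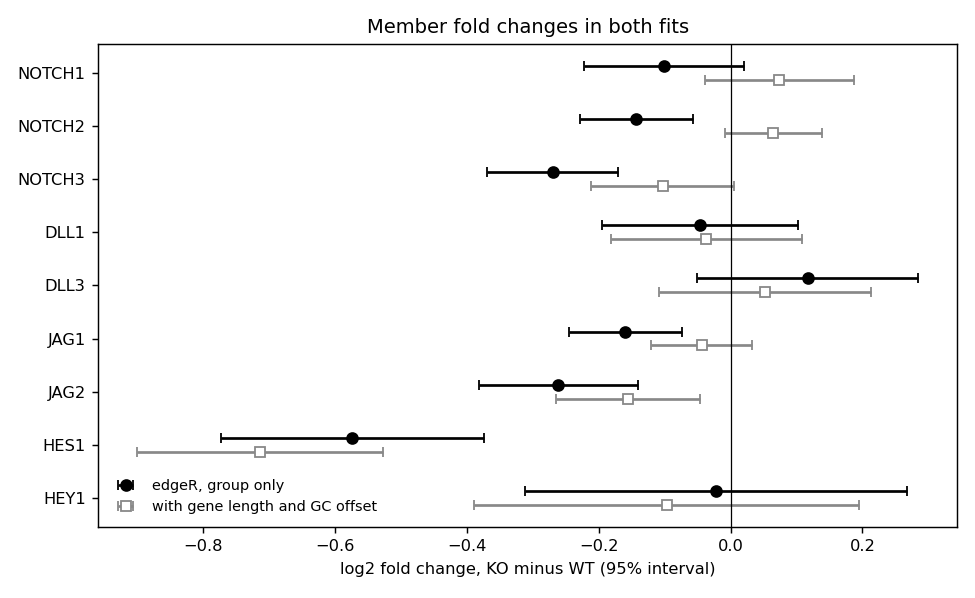
Log2 fold changes, KO minus WT, of the 9 tested Notch genes with 95% intervals, in the fit on group alone (black circles) and with the length and GC correction (grey squares). The intervals of HES1 and JAG2 exclude 0 in both fits, while NOTCH1 and NOTCH2 change sign.

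The levels of different genes were compared as CPM per kilobase of the longest transcript. In WT, NOTCH1 (17.4 ± 0.38, SD, n = 5) and NOTCH3 (17.0 ± 0.48) led, with overlapping ranges. HES1 (8.86 ± 0.66) and DLL3 (7.75 ± 0.79) followed and overlapped too, then NOTCH2 (6.27 ± 0.24) and JAG1 (5.97 ± 0.18), which overlapped. JAG2 (2.97 ± 0.12), DLL1 (2.22 ± 0.13) and HEY1 (1.12 ± 0.10) stood lower, each without overlap with the next. In the knockout HES1 (5.95 ± 0.83) had dropped below DLL3 (8.41 ± 0.71), with ranges of 4.81 to 7.09 and 7.35 to 9.21, and it overlapped NOTCH2 (5.68 ± 0.29) and JAG1 (5.34 ± 0.26). The other genes kept their order by mean, and JAG2 (2.17 to 2.64) and DLL1 (1.92 to 2.35) overlapped.

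**Figure D4:**
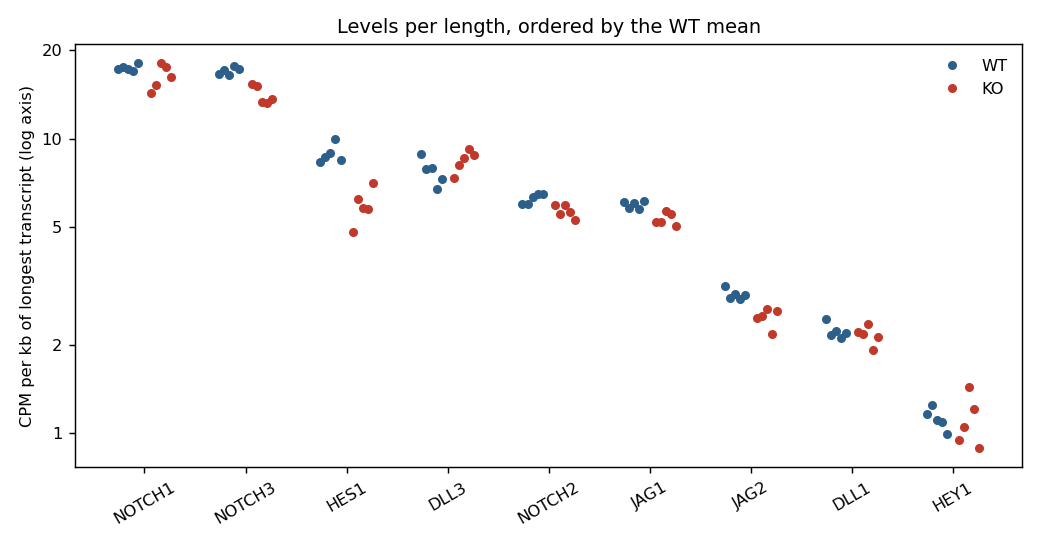
CPM per kb of longest transcript (log axis) in each WT and KO library for the 9 Notch genes with counts in all libraries, ordered by the WT mean; points are libraries. NOTCH1 and NOTCH3 lie between 13.1 and 18.0 in all libraries, and HES1 is the gene whose place in the order shifts, from 8.86 to 5.95.

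As shares of the receptor signal per length, NOTCH1 made up 41.7% ± 0.79 (SD, n = 5) in WT and 44.5% ± 3.63 in the knockout, NOTCH3 40.8% ± 0.69 and 38.7% ± 3.24, and NOTCH2 15.1% ± 0.47 and 15.6% ± 0.61. NOTCH4 made up the rest, 2.43% ± 0.28 in WT and 1.23% ± 0.17 in the knockout, without overlap. Among the ligands DLL3 held the largest share, 40.7% ± 1.91 in WT and 45.4% ± 2.41 in the knockout. JAG2 held 15.6% ± 0.43 in WT and 13.4% ± 1.11 in the knockout, and DLL4, the ligand of sprouting vessels, was 0.617% ± 0.20 in WT and 0.571% ± 0.11 in the knockout. These shares are descriptions and were not tested.

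The rest of the pathway moved in both directions. From a list of 80 other Notch pathway genes, 79 had a row and 70 were tested, of which 16 were higher and 26 lower (60%, against 46.0% of all genes), with a median log2 fold change of -0.05. With the length and GC correction 19 were higher and 21 lower, against 3884 and 4635 of all 19163 tested genes. Without knockout replicate 3 and WT replicates 2 and 3, 10 were higher. By role the share called was 25% for ligands, 41.7% for turnover, 50% for glycosylation, 57.1% for corepressors and 62.5% for HES and HEY relatives. It was 75% for ubiquitin ligases and 77.8% for both cleavage and coactivators. Over all tested genes 21.9% were higher and 24.1% lower, so calls in both directions are not particular to these roles.

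The receptor NOTCH4, which is best known in endothelium, showed the largest fall on the list, from 6.81 ± 0.71 to 3.03 ± 0.38 CPM (log2 fold change -1.17, edgeR adjusted p = 5.33e-06). Of 7 tested endothelial markers, 4 fell with it: ERG (-2.34, from 3.36 to 0.669 CPM), VWF (-1.15), CDH5 (-0.995) and TIE1 (-0.36). TEK (0.57) and KDR (0.11) rose. The summed level of all 8 listed, most of it KDR, was 86.9 to 90.8 CPM in the knockout and 83.8 to 87.7 CPM in WT, and the defining markers PECAM1 and CDH5 were under 1 CPM in every library. Their part in the fall of NOTCH4 was not tested. Of 4 tested ligand genes outside the set 1 fell, DNER (-0.57, edgeR adjusted p = 0.00573), while CNTN1 (-0.30, edgeR adjusted p = 0.072) and DLK1 (0.21, edgeR adjusted p = 0.507) did not pass.

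Among the enzymes that act on receptors and ligands, members of most groups went both ways. Of 6 glycosylation genes 1 rose, the Fringe gene LFNG (0.31), and 2 fell, its relative MFNG (-0.69) and EOGT (-0.27). Fringe enzymes add sugars that shift a receptor's response between Delta-like and Jagged ligands. Of 9 cleavage genes 2 rose and 5 fell: the gamma-secretase subunit gene NCSTN changed by -0.35 and the protease gene ADAM10 by -0.27, and the subunit gene PSENEN rose by 0.28. After correction for length and GC, 2 glycosylation genes were higher and 3 lower, and 1 cleavage gene was higher and 3 lower, with ADAM10 at -0.14 and PSENEN at 0.15, both still called. Of 4 ubiquitin ligase genes that prepare ligands for signalling, MIB1 (-0.31) and NEURL1B (-0.42) fell and NEURL1, at 0.61 CPM in the knockout, rose by 0.57. The call for NEURL1 was lost in 11 of the 18 alternatives run for it, among them without knockout replicate 3, 4 or 5. Of 12 genes of receptor turnover and inhibition 2 rose and 3 fell, with NUMB, a Notch inhibitor, at 0.10, WWP2 at -0.20 and DTX1 at -0.56. Without knockout replicate 3 and WT replicates 2 and 3, NUMB was 0.09 and not called (edgeR adjusted p = 0.127). NRARP, a Notch target that feeds back on the pathway and was chosen after its values were seen, fell from 51.7 ± 5.01 to 44.1 ± 2.30 CPM (-0.23, edgeR adjusted p = 0.0103). Its groups overlapped in part, and without the same 3 libraries it was -0.15 and not called (edgeR adjusted p = 0.0586). Length and GC correction gave -0.35 for NRARP, 0.15 for NUMB, -0.13 for WWP2 and -0.20 for MIB1, all called.

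In the nucleus, RBPJ, the DNA-binding partner of Notch, rose. It was also chosen after its values were seen. It measured 138.3, 128.1, 173.0, 168.3 and 155.4 CPM in the knockout and 122.0, 116.7, 120.2, 113.9 and 125.4 CPM in WT, with no overlap (log2 fold change 0.35, SE 0.07, edgeR adjusted p = 0.00216). Knockout replicates 1 and 2 lay closest to WT. Of 9 coactivator genes 3 rose and 4 fell, with MAML3 at -0.61, CREBBP at -0.19 and SNW1 at 0.15, of which CREBBP (0.02) and SNW1 (0.04) were not called with the length and GC correction. Of 14 corepressor genes 3 rose and 5 fell, led by TLE2 (-0.77), SPEN (-0.43) and TLE1 (-0.23). Corrected for length and GC, 2 coactivator genes were higher and 1 lower, 6 corepressor genes were higher and 3 lower, and SPEN was -0.21, still called.

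Of 6 other HES and HEY genes tested, 1 rose (HES4), 2 fell as HES1 did (HES6 and HEYL) and 3 were not called. With the related bHLH genes BHLHE40 and BHLHE41, which also rose, the list had 3 higher and 2 lower of 8. HES4, a close relative of HES1, went up from 2.80 ± 0.30 CPM in WT to 5.22 ± 1.48 CPM (0.90 ± 0.18 in log2, SE; edgeR adjusted p = 0.00149), in the opposite direction to HES1. Its knockout libraries ranged from 3.393 to 7.307 CPM. HES6, whose product opposes HES1, fell from 81.3 ± 1.0 to 61.6 ± 3.27 CPM (-0.40, edgeR adjusted p = 4.65e-06), and HEYL fell by 0.49. Among the neurogenic genes that HES factors are known to hold back or that act beside them, NEUROG2, NEUROG3, NEUROD1 and NEUROD4 had too few counts to be tested, with means of at most 0.0691 CPM. NHLH2 rose by 3.54, NHLH1, under 1 CPM, had a log2 fold change of -0.58 that was called (edgeR adjusted p = 0.0478) but not in 15 of the 18 alternatives run for it, and ATOH1, at 0.28 CPM in the knockout, stood at 1.02 (edgeR adjusted p = 0.113).

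**Figure D5:**
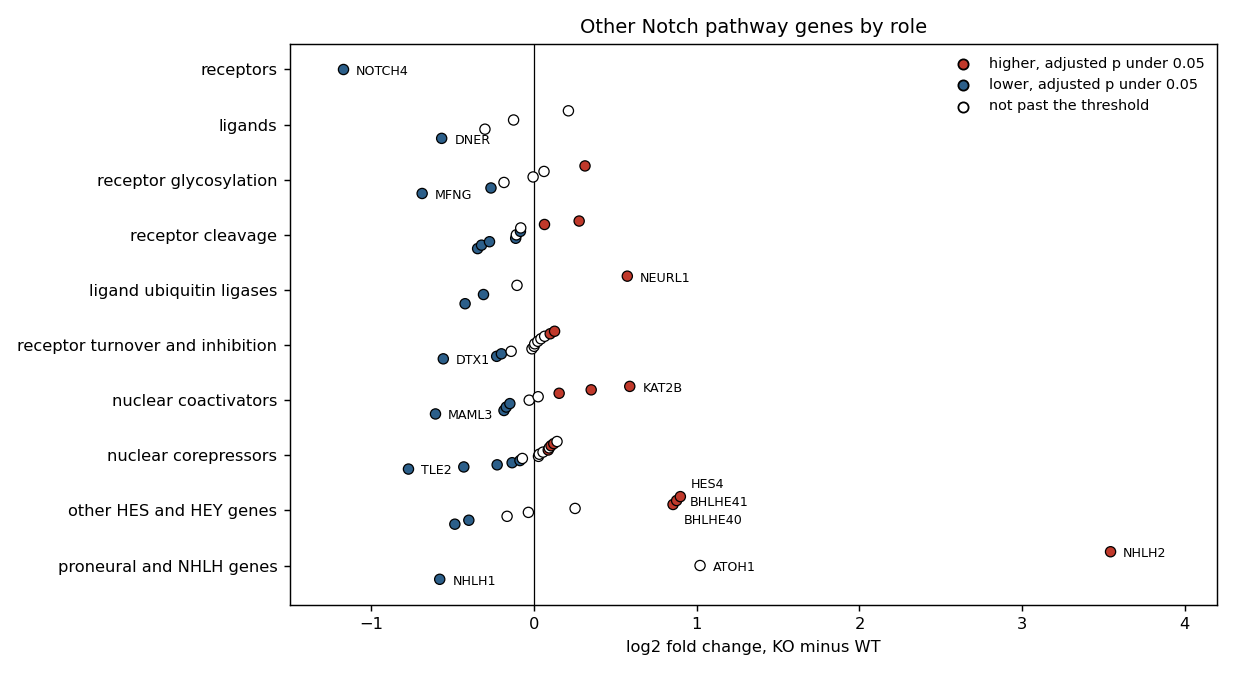
Log2 fold change, KO minus WT, of the 70 tested other Notch pathway genes by role; each point is a gene, red if higher and blue if lower at adjusted p under 0.05, white if not called, and genes beyond 0.55 in size are named. Most roles hold points on both sides of 0, and NOTCH4 at -1.17 and NHLH2 at 3.54 are the extremes.

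The genes with the profile most like those of the 3 Notch genes with the smallest p were found among 12210 genes of at least 5 CPM, as the smallest root mean square difference in centred log2 CPM over the 10 libraries. For HES1 these were IGFBP6 (0.108), which went from 10.4 ± 0.45 CPM in WT to 7.18 ± 0.55 CPM in the knockout, and CLEC11A (0.118). For NOTCH3 they were DHX40 (0.023) and EZH2 (0.027). Among the knockout libraries both were highest in replicates 1 and 2, like NOTCH3, which follows from how they were chosen. For JAG2 they were FANCA (0.048) and CLDN19 (0.054).

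In the authors' deposited table the 9 tested Notch genes had the same direction, with a log2 fold change of -0.53 for HES1, -0.25 for NOTCH3, -0.24 for JAG2, -0.14 for JAG1 and -0.13 for NOTCH2. Its adjusted p-values were under 0.05 for these 5 and not for DLL3 (0.228), NOTCH1 (0.256), DLL1 (0.803) or HEY1 (0.970). In that table none of the 10 carried a YES in the column of calls, whose rule the sources used here do not state.

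On GRCh38 in GENCODE 29, NOTCH1 (ENSG00000148400) spans chromosome 9, 136494433 to 136545786, and NOTCH2 (ENSG00000134250) chromosome 1, 119911553 to 120069626. NOTCH3 (ENSG00000074181) spans chromosome 19, 15159038 to 15200981, and DLL3 (ENSG00000090932), on the plus strand, the same chromosome from 39498895 to 39508481. DLL1 (ENSG00000198719) lies on chromosome 6, 170282206 to 170306565, JAG1 (ENSG00000101384) on chromosome 20, 10637684 to 10673999, and JAG2 (ENSG00000184916) on chromosome 14, 105140981 to 105168824. HES1 (ENSG00000114315), on the plus strand, spans chromosome 3, 194136145 to 194138732. HES5 (ENSG00000197921) spans chromosome 1, 2528745 to 2530245, and HEY1 (ENSG00000164683) chromosome 8, 79764010 to 79767863. All but DLL3 and HES1 lie on the minus strand.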

How the data were processed

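For the 10 libraries the deposited values are raw gene counts without normalization. Per the labels, RNA was sequenced with 150 paired-end cycles, while R 3.6.3, DESeq2 and hg38 are named in the submitters' processing notes. Aligner, counter and strand are not given in the sources. The authors' own deposited comparison table gave gene symbols and holds a mean normalised signal, log2 fold changes with SE, a test score and p-values.

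The test was the quasi-likelihood test of edgeR 4.0.16 (R 4.3.3) on group, after TMM scaling and filterByExpr. Adjusted p-values (Benjamini-Hochberg, all 19163 genes passing the filter) were called under 0.05. The fitting step was tested on simulated counts. Log2 CPM used a prior count of 2. Log2 ratios of counts were tested with scipy 1.17.1, exact and two-sided. Lengths and GC were those of the longest GENCODE 29 transcript (known for 98.9% of tested genes), and the correction entered each library's spline trend (natural, 5 degrees of freedom) as an offset. Alternatives were DESeq2 1.42.0 size factors and Wald test, limma 3.58.1 voom, other filters, a replicate block, left-out libraries, and a threshold test at a log2 fold change of 1. The chi-square per degree of freedom between libraries of a group was 3.59 to 26.2, above sampling noise. Each library counted as 1 replicate, although this spread does not show that they were separate cultures. A count of 0 allows up to 3 counts, for counting error only.

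Named genes were KCNH2, the 10 Notch genes, the 3 smallest p-values per role of the pathway list, pathway genes called with a log2 fold change beyond 1, and the 2 nearest profiles. Members, lists and ratios were chosen with earlier results of these data known.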

Additional observations from a re-analysis of the deposited data

How the results depend on the processing

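With the gene length and GC correction, 2 Notch genes were lower in place of 5, near the share over all genes (4635 of 19163). Among named genes NOTCH1 (0.074), NOTCH2 (0.065) and CREBBP (0.021) changed sign. NOTCH3 (-0.10), JAG1 (-0.04) and SNW1 (0.04) kept their sign but lost their call. Of the pathway genes not named, NCOR1 (0.035), EP300 (0.044) and KDM5A (0.061), called lower without the correction, also changed sign. The cause was not tested. Tested against a log2 fold change of 1, 0 Notch genes were lower, 1 pathway gene was higher and 0 lower, 83 of all genes were higher and 93 lower, and KCNH2 (-0.35) was not called, since few changes exceed that size. Without knockout replicate 3 and WT replicates 2 and 3, 10 pathway genes were higher in place of 16, with fewer libraries. Leaving out 1 library at a time gave 5 to 6 Notch genes lower and 0 higher, with NOTCH1 called without knockout replicate 3. HEY1 then ranged from -0.131 to 0.048, above 0 without knockout replicate 1 or 5 or WT replicate 2. JAG2 and HES1 were lower and called in all 19 alternatives other than the threshold test, and NOTCH2, NOTCH3 and JAG1 in 18.

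With a replicate block, 0 Notch genes were higher and 5 lower, and 13 pathway genes were higher and 24 lower; among named genes the block lost the calls of NEURL1 and NHLH1 and gained that of CNTN1. Same-numbered libraries deviated together in 4 of 5 pairs (correlation over 0.1, from -0.157 to 0.698). Of the 5 knockout libraries 1 correlated best with its own number, replicate 3 with WT replicate 3 (0.698). Whether same-numbered libraries share more than a number was not tested. The ratios of DLL3 and of DLL1 to JAG2 were not called with the length and GC correction, an alternative chosen after seeing the data. For HES5 the depth allows no comparison.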

Other observations

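Inside the knockout group the Notch genes did not vary together. Replicates 1 and 2 held the lowest NOTCH1 (133.2 and 141 CPM) and RBPJ (138.3 and 128.1 CPM) but the highest NOTCH3 (132.6 and 131.1 CPM). The fringe gene MFNG was also highest there, at 4.032 and 4.842 CPM against 2.621 to 3.446 CPM in the other knockout libraries. HES1 did not follow this split, with its lowest value in replicate 1 (7.593 CPM) and its highest in replicate 5 (11.19 CPM). This pattern was seen after looking at the values and was not tested. The split is not particular to Notch genes. Replicates 1 and 2 were the closest pair of knockout libraries (chi-square per degree of freedom 4.8). The markers COL1A2 (92.9 and 96.3 CPM against 72.0 to 74.1 CPM) and DNMT3B were also highest in these 2 replicates, while SALL4 was not.

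The bHLH repressor genes BHLHE40 and BHLHE41, which are relatives of the HES genes and were chosen after their values were seen, rose with HES4. BHLHE40 went from 3.54 ± 0.18 to 6.38 ± 2.57 CPM (log2 fold change 0.85, edgeR adjusted p = 0.012) and BHLHE41 from 1.67 ± 0.25 to 3.06 ± 0.92 CPM (0.88, edgeR adjusted p = 0.00359). The groups overlapped for BHLHE40 and not for BHLHE41. Knockout replicates 1 and 2 held the lowest knockout values of both genes, the same split as above. BHLHE40 was 3.528 and 3.951 CPM there and 6.722 to 8.896 CPM in replicates 3 to 5 (WT up to 3.821 CPM). BHLHE41 was 2.184 and 2.17 CPM there and 2.905 to 4.016 CPM in replicates 3 to 5 (WT up to 1.974 CPM).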
